A study of Sparus aurata with 53 samples.

Results

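Cytosolic and endoplasmic reticulum chaperones of the hsp70 and hsp90 families were followed over a daily cycle in larvae of gilthead sea bream (Sparus aurata). Of the 13,940 probes of the array, 4 were taken by their clone codes, namely hsp70 (C2_15999, heat shock 70 kDa protein 1), grp78 (C2_14888, 78 kDa glucose-regulated protein), hsp90-alpha (C2_4132) and grp94 (C2_1490, endoplasmin). Whole larvae at 30 days post hatching, were reared with feed always at hand in a cycle of 12 h light and 12 h dark, in which zeitgeber time 0 h is light on, and were collected at 9 times, 3 h apart, over 24 h. No larva carried a transgene or received a treatment, and by their labels the 9 groups differ only in sampling time. RNA of single larvae was hybridised to 53 arrays with 1 dye, 6 per sampling time and 5 at 12 h, and the tank of a larva is not among its labels, although larvae of a sampling time shared tanks. The study listed these 4 clones because they passed its own test on the same larvae. They also fell in its cluster of genes highest from late in the light phase to early in the dark phase. Their variation over the day and their shared low around light on are therefore not independent evidence.

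Chaperones of the hsp70 family bind unfolded stretches of new or damaged proteins and release them in a cycle driven by ATP, and DnaJ proteins (hsp40) start that cycle. Chaperones of the hsp90 family act later, on nearly folded client proteins such as kinases and steroid hormone receptors. Grp78 and grp94 are the members of these families in the endoplasmic reticulum, where they fold secreted and membrane proteins, and grp78 also holds the sensors of the unfolded protein response. In other animals, heat shock factors drive the cytosolic forms, while the unfolded protein response drives the forms of the endoplasmic reticulum.

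Both families have near-identical members, and a probe may read more than 1 of them. In the RefSeq annotation of the sea bream assembly fSpaAur1.1, 12 genes carry a numbered hspa symbol and 4 an hsp90 symbol, with hsp90aa1.1 and hsp90aa1.2 next to each other on the chromosome. The genes of the endoplasmic reticulum forms, hspa5 (grp78) and hsp90b1 (grp94), are each listed 1 time. Which of these genes each probe reads was not analysed here.

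All values are log2 of the background-corrected signal relative to the array's own 75th percentile, so that 0 is the level of the 75th percentile and 1 unit is a 2-fold difference. That percentile lay between 141 and 504 fluorescence units (median 297), and 74.2% to 94.3% of probes exceeded background clearly on the single arrays. All 212 values of the 4 clones were well above background and 0 were saturated. The arrays lay on 7 slides scanned in 3 batches, and no slide held 2 larvae of the same time. Slides and batches were not spread evenly over the times. Slide 7, alone in the third batch, held larvae of 9 h to 24 h but none of 0, 3 or 6 h. The second batch held none of 12 h. On this scale the median signal over all probes shifted between sampling times by up to 0.15. In whole larvae, fewer cells of a type and less RNA per cell cannot be told apart.

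All 4 clones were higher in the second part of the light phase or in the dark phase than around light on, and the cytosolic hsp70 had the widest course. From its lowest to its highest mean, hsp70 differed by 4.13-fold (0 h to 9 h), hsp90-alpha by 3.08-fold (24 h to 9 h), grp78 by 2.76-fold (0 h to 9 h) and grp94 by 1.74-fold (3 h to 18 h). These ranges were wider than those of 97.9% of probes for hsp70, 95.1% for hsp90-alpha, 92.7% for grp78 and 66.1% for grp94. The median range over all probes was 0.62 (log2). Divided by the SD within sampling times, the range was 2.50 for hsp70, 2.60 for grp94, 3.78 for hsp90-alpha and 4.02 for grp78. The median of this ratio over all probes was 1.42. All 4 passed the moderated F test over the 9 sampling times (limma, Benjamini-Hochberg over all probes, threshold 0.05), as did 15.7% of all probes. All 4 also fitted a cosine of 24 h, as did 29.6% of all probes, and a 12 h component was called in 0 of them (limma adjusted p = 0.999 for each, 0 of 4 at an unadjusted p under 0.05, 0.1% of probes called).

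**Figure D1:**
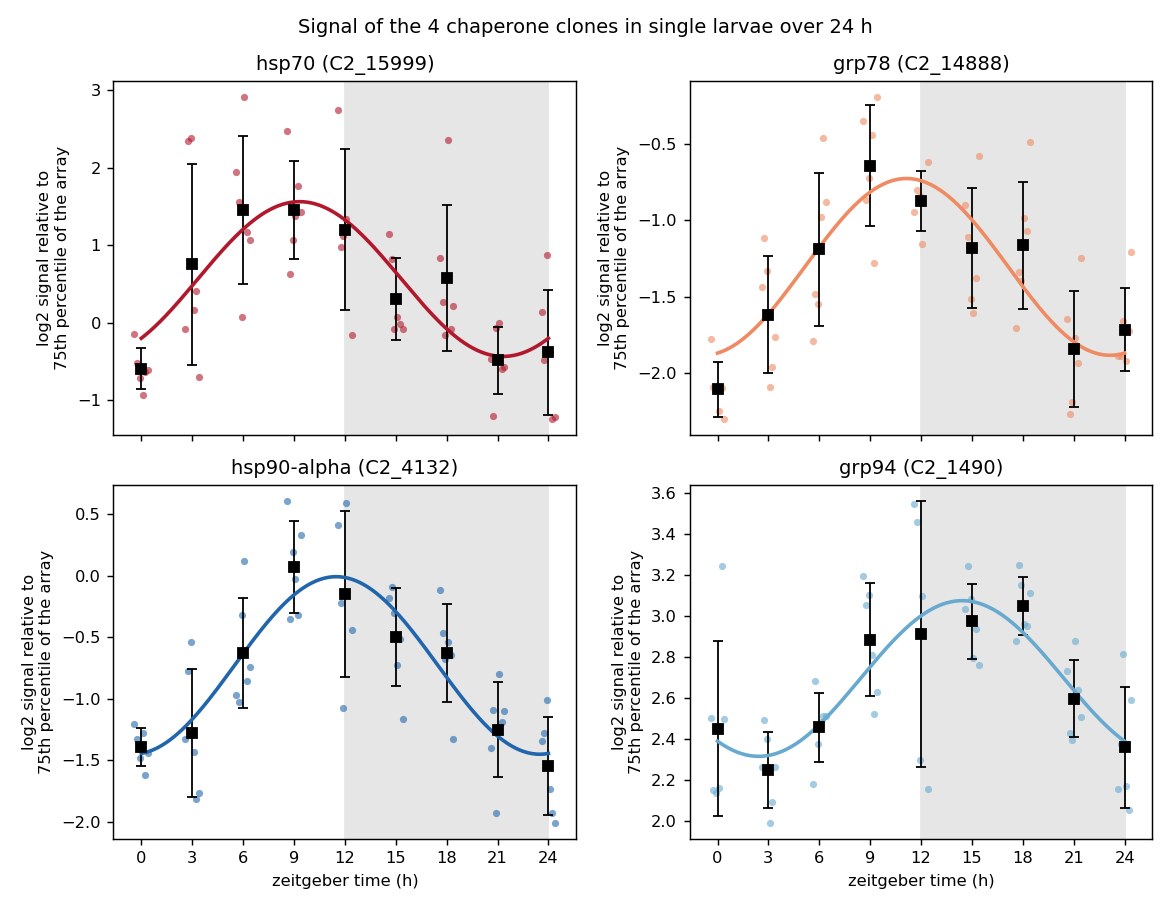
Signal of the 4 clones (y axis, log2 relative to the 75th percentile of the array) against zeitgeber time (x axis, h), with 1 coloured point per larva, black squares and bars for mean and SD (n = 6, and 5 at 12 h), a fitted 24 h cosine as a line and the dark phase in grey. The hsp70, grp78 and hsp90-alpha means were highest at 9 h and the grp94 mean at 18 h, and the larvae of hsp70 were the most scattered.

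Heat shock 70 kDa protein 1 is the cytosolic form that stress induces in vertebrates. At 0 h the larvae lay close together, from -0.93 to -0.14 with a median of -0.62. At 3 h they ranged from -0.70 to 2.38 with a median of 0.28, at 6 h from 0.07 to 2.91 with a median of 1.37, and at 9 h from 0.63 to 2.48 with a median of 1.40. At 3 h, 2 larvae were far above the others, at 2.35 and 2.38 against a highest value of 0.41 among the other 4. The 5 larvae at 12 h were at 2.75, 0.97, 1.12, 1.33 and -0.16. In the dark phase the median was first near the level of 3 h (0.03 at 15 h, and 0.25 at 18 h with 1 larva at 2.35), then near that of light on (-0.51 at 21 h, -0.43 at 24 h).

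The mean of hsp70 was -0.59 ± 0.26 (SD, n = 6) at 0 h and 1.46 ± 0.63 (SD, n = 6) at 9 h, a rise of 2.05 ± 0.46 (SE), and the larvae of the 2 times did not overlap (4.11% of probes had no overlap between these times). Here and for the other clones below, the times of a clone's own highest and lowest mean were picked, so that a lack of overlap is partly built in. The shares of probes beside it are for the same times and not for each probe's own highest and lowest. The moderated F test gave an adjusted p of 3.5e-04. The cosine had an amplitude of 1.00 ± 0.16 (SE) and peaked at 9.33 h (95% interval 8.09 to 10.6 h, adjusted p = 7.0e-06). Within sampling times the SD was 0.82, higher than in 90.1% of probes, and it ran from 0.26 at 0 h to 1.30 at 3 h.

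Grp78 is the hsp70 of the endoplasmic reticulum. Its larvae ranged from -2.30 to -1.78 at 0 h with a median of -2.11, and from -1.28 to -0.19 at 9 h with a median of -0.58. These ranges did not overlap (4.11% of probes had no overlap between 0 h and 9 h). At 12 h the 5 larvae, at -0.95, -0.80, -0.84, -1.16 and -0.62, were all still above those of 0 h (5.02% of probes had no overlap between 0 h and 12 h). By 21 h the larvae ranged from -2.27 to -1.24 around a median of -1.85. The mean rose by 1.47 ± 0.21 (SE) from 0 h to 9 h, with an F test adjusted p of 1.65e-06, and the cosine had an amplitude of 0.58 ± 0.07 (SE) and a peak at 11.1 h (95% interval 10.1 to 12.2 h, adjusted p = 2.2e-08). The SD within sampling times was 0.36, higher than in 37.7% of probes, so that grp78 had the smaller daily range of the 2 hsp70 clones but also the smaller scatter. One slide stood apart for this clone: the 6 larvae on slide 7, which alone made up a scan batch, lay on average 0.52 above the means of their sampling times, and a fit that held slide constant gave a range of means of 1.37 and an F test adjusted p of 3.9e-07.

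Hsp90-alpha is a cytosolic hsp90 that stress induces in mammals, and whether stress induces this clone was not tested. Its larvae ranged from -1.62 to -1.20 at 0 h (median -1.38) and from -1.82 to -0.54 at 3 h (median -1.38), which shows no shift of the median in the first 3 h of light. At 6 h they ranged from -1.03 to 0.13 (median -0.80) and at 9 h from -0.35 to 0.61 (median 0.08). The larvae at 9 h thus lay above every larva of 0 h and of 24 h. At 24 h the larvae ranged from -2.01 to -1.01 (median -1.54). Of all probes, 4.11% had no overlap between 0 h and 9 h, and 3.08% between 9 h and 24 h. At 12 h the 5 larvae were at 0.41, -0.22, -1.07, 0.60 and -0.44. The mean fell by 1.62 ± 0.25 (SE) from 9 h to 24 h, with an F test adjusted p of 7.8e-07, and the cosine had an amplitude of 0.72 ± 0.08 (SE) and a peak at 11.49 h (95% interval 10.6 to 12.4 h, adjusted p = 1.1e-09).

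Grp94, the hsp90 of the endoplasmic reticulum, had its low at 3 h and its high at 18 h, in the middle of the dark phase. Its larvae ranged from 1.99 to 2.49 at 3 h (median 2.26) and from 2.88 to 3.25 at 18 h (median 3.04). The larvae of these times did not overlap (2.57% of probes), and those at 15 h, from 2.76 to 3.24 (median 2.98), were also all above those at 3 h (5.32% of probes). At 12 h the 5 larvae fell into wide positions, at 3.55, 3.46, 2.30, 3.10 and 2.15, and at 0 h 1 larva at 3.25 stood above the others, whose highest was 2.50. The mean rose by 0.80 ± 0.18 (SE) from 3 h to 18 h, with an F test adjusted p of 0.0011, and the cosine had an amplitude of 0.38 ± 0.06 (SE) and a peak at 14.4 h (95% interval 13.2 to 15.6 h, adjusted p = 4.1e-06). Among the F tests and 24 h cosines of the 4 clones, this F test was the 1 call that an alternative processing ended, since normexp background correction gave an adjusted p of 0.432.

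Between levels next to each other in time or in rank, no difference was called. By limma, 0 of the 32 successive 3 h steps of the 4 clones were called (lowest adjusted p = 0.161, for grp78 from 18 h to 21 h, and 11 at an unadjusted p under 0.05), where 0.333% of such steps were called over all probes. The grp78 step from 18 h to 21 h was called with slide (-0.66, adjusted p = 0.0433) or scan batch (-0.68, adjusted p = 0.0385) as a block. For grp94, the larvae of 18 h and 21 h narrowly did not overlap (lowest 2.880 at 18 h, highest 2.877 at 21 h, 0.703% of probes). That step was -0.45 (95% interval -0.82 to -0.09, limma adjusted p = 0.403). Of the 32 pairs of neighbours in the order of a clone's means, 0 were called (lowest adjusted p = 0.129, and 2 at an unadjusted p under 0.05). These pairs come from sorting the same means, so that small gaps, and few calls, are largely built in. The share of such pairs called over all probes was not computed. From high to low, the means of hsp70 were ordered 9, 6, 12, 3, 18, 15, 24, 21 and 0 h, and those of grp78 9, 12, 18, 15, 6, 3, 24, 21 and 0 h. The order was 9, 12, 15, 18, 6, 21, 3, 0 and 24 h for hsp90-alpha, and 18, 15, 12, 9, 21, 6, 0, 24 and 3 h for grp94. Hsp70 at 6 h stood beside its 9 h value (1.45 and 1.46), whereas grp78 and hsp90-alpha at 6 h ranked 5 of 9. The 2 ends of the cycle were not called for any of the 4 clones (limma, lowest adjusted p = 0.958, 0 of 4 at an unadjusted p under 0.05), nor for any probe (0% called, 449 probes at an unadjusted p under 0.05), with differences of 24 h minus 0 h between -0.16 for hsp90-alpha (95% interval -0.65 to 0.34) and 0.39 for grp78 (95% interval -0.03 to 0.82). On the 5 slides that held both times, grp78 was higher at 24 h on 5 of 5 (0.18 to 0.59), hsp70 on 4, grp94 on 3 and hsp90-alpha on 2. The share of all probes with such counts of slides was not computed, here and below.

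Over all 36 pairs of sampling times, 13 were called for hsp90-alpha, 11 for grp78, 9 for hsp70 and 8 for grp94, while over all probes 3.58% of such tests were called, from 0% to 9.83% in single pairs. Of the pairs that start at 0 h, the earliest called was 6 h for hsp70 (2.04) and grp78 (0.92), 9 h for hsp90-alpha (1.47) and 18 h for grp94 (0.60). These calls do not order the clones by onset, since earlier differences fell short of the threshold. At 6 h, hsp90-alpha was 0.76 ± 0.25 (SE) above 0 h (limma adjusted p = 0.111). Its larvae of these times did not overlap (2.47% of probes), whereas those of grp78 did. At 15 h, grp94 was 0.53 ± 0.18 (SE) above 0 h (limma adjusted p = 0.0616). For grp94, 9 h was also called without all larvae of replicate 5 (0.67, adjusted p = 0.0258, against 0.44, adjusted p = 0.181, with them). Of all probes, 0.739% were called higher at 6 h, 2.78% at 9 h and 3.73% at 18 h.

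Times 12 h apart were compared clone by clone, and differences between clones were not tested at these single pairs of times. From light on to light off (0 h to 12 h), hsp70 rose by 1.79 ± 0.48 (SE, adjusted p = 0.0150), grp78 by 1.24 ± 0.22 (adjusted p = 8.0e-05) and hsp90-alpha by 1.25 ± 0.26 (adjusted p = 7.5e-04). Grp94 was 0.46 ± 0.19 higher and was not called (adjusted p = 0.172), and 2.46% of probes were called higher. The hsp70 call was lost without the first replicate at 12 h, the larva at 2.75 (rise 1.41, adjusted p = 0.0915), and without all larvae of replicate 1 (1.50, adjusted p = 0.102) or 4 (1.69, adjusted p = 0.0590). Grp94 was called without 12 h replicate 3 (0.62, adjusted p = 0.0497) or 6 (0.65, adjusted p = 0.0259) and without all larvae of replicate 5 (0.62, adjusted p = 0.0430). On the 4 slides that held both times, all 4 clones were higher at 12 h on 4 of 4 slides. How many probes were so was not computed, but 59.2% of all probes had a higher mean at 12 h than at 0 h.

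From 9 h to 21 h, hsp70 fell by 1.94 ± 0.46 (SE, adjusted p = 0.0043), hsp90-alpha by 1.33 ± 0.25 (adjusted p = 1.9e-04) and grp78 by 1.20 ± 0.21 (adjusted p = 7.1e-05), on 5 of 5 shared slides each, while 2.98% of probes were called lower. Grp94 differed by -0.29 ± 0.18 and was not called (adjusted p = 0.394). From 3 h to 15 h, in contrast, grp94 rose by 0.73 ± 0.18 (adjusted p = 0.0044) and hsp90-alpha by 0.78 ± 0.25 (adjusted p = 0.0319), each on 5 of 5 shared slides, against 4.67% of probes called higher. Hsp70 differed by -0.45 ± 0.46 (adjusted p = 0.642) and grp78 by 0.44 ± 0.21 (adjusted p = 0.209), neither called. The hsp90-alpha call was lost under median centring (0.77, adjusted p = 0.0625), under normexp (0.56, adjusted p = 0.0795) and without replicates 1, 2, 4 or 5 (0.68 to 0.80). The grp94 call was lost under normexp (0.74, adjusted p = 0.109).

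From 6 h to 18 h, grp94 was called (0.59 ± 0.18, adjusted p = 0.0345, 4.53% of probes called higher) and was higher on 5 of 5 shared slides. The other 3 were not called, with differences of 0.00 for hsp90-alpha (95% interval -0.49 to 0.50), 0.03 for grp78 (-0.40 to 0.45) and -0.88 for hsp70 (-1.81 to 0.05). The grp94 call was lost without each of the 6 replicates in turn (0.56 to 0.62), under median centring (0.48, adjusted p = 0.199) and under normexp (0.16, adjusted p = 0.606). From 12 h to 24 h, hsp70 fell by 1.58 ± 0.48 (adjusted p = 0.0344), grp78 by 0.84 ± 0.22 (adjusted p = 0.0100) and hsp90-alpha by 1.40 ± 0.26 (adjusted p = 1.3e-04), against 2.78% of probes called lower. Grp94 differed by -0.55 ± 0.19 and was not called (adjusted p = 0.0704). On the 4 shared slides the first 3 clones were lower at 24 h on 4 of 4, and grp94 on 2 of 4 with a median difference of -0.10. The hsp70 call was lost without 12 h replicates 1 (-1.20, adjusted p = 0.196), 3 or 4, without replicates 1, 2, 4 or 5 at all times (-1.30 to -1.62), under median centring and under normexp. The grp78 call was lost without replicate 2 (-0.79, adjusted p = 0.0660) or 3 (-0.85, adjusted p = 0.0531) and under normexp (-0.55, adjusted p = 0.101). Grp94 was called without replicate 3 (-0.80) or 6 (-0.79), without 12 h replicate 3 (-0.71) or 6 (-0.74) and under quantile normalization (-0.57, adjusted p = 0.0385).

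Whether 2 clones followed the same course was asked within larvae, from the difference of their log2 values in each larva and how that difference moved over the day. This compares courses and not levels, since levels of different probes are not comparable. Courses can differ in their timing or only in the size of their swing, and the test does not separate these. Grp94 differed in course from each of the other clones, and hsp70 differed from hsp90-alpha, while hsp70 and grp78, and grp78 and hsp90-alpha, were not separated. The permutation tests (100,000 resamples of larvae, 6 pairs, adjusted over the 6) gave an adjusted p of 3.0e-04 for hsp70 against grp94 and for hsp90-alpha against grp94, 0.0035 for grp78 against grp94 and 0.0136 for hsp70 against hsp90-alpha. Hsp70 against grp78 gave 0.111, but 0.0334 with replicate number as a block and 0.0472 without 12 h replicate 6, and grp78 against hsp90-alpha gave 0.681. Under normexp background correction the calls of grp78 against grp94 (0.248) and of hsp90-alpha against grp94 (0.0735) were lost.

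The difference of hsp70 and grp94, centred on its daily mean, ran from 1.18 ± 0.96 (SD, n = 6) at 6 h to -0.90 ± 0.39 (SD, n = 6) at 21 h, and the larvae of these times did not overlap, with values from -0.12 to 2.61 and from -1.45 to -0.28. Hsp90-alpha minus grp94 ran from 0.66 ± 0.37 (SD) at 9 h to -0.44 ± 0.38 (SD) at 24 h, again without overlap. Grp78 minus grp94 ran from 0.50 ± 0.42 (SD) at 9 h to -0.53 ± 0.44 (SD) at 0 h, also without overlap. In each case the times were picked as those of the highest and lowest mean of the difference, so that a lack of overlap is partly built in. How many other pairs of probes lack overlap at such times was not computed. All 3 differences from grp94 had positive means from 6 h to 12 h and negative means from 18 h to 24 h.

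Within the cytosolic pair, hsp70 minus hsp90-alpha was 0.74 ± 0.86 (SD) at 3 h and 0.80 ± 0.94 (SD) at 6 h, and -0.52 ± 0.64 (SD) at 21 h, so that hsp70 was relatively higher early in the light phase, with larvae that overlapped. That call was lost without replicate 2 (adjusted p = 0.185) and without replicate 5 (adjusted p = 0.0873). For grp78 and hsp90-alpha no mean of the centred difference went beyond -0.17 (12 h) and 0.39 (24 h), with an SD of 0.55 within times.

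**Figure D2:**
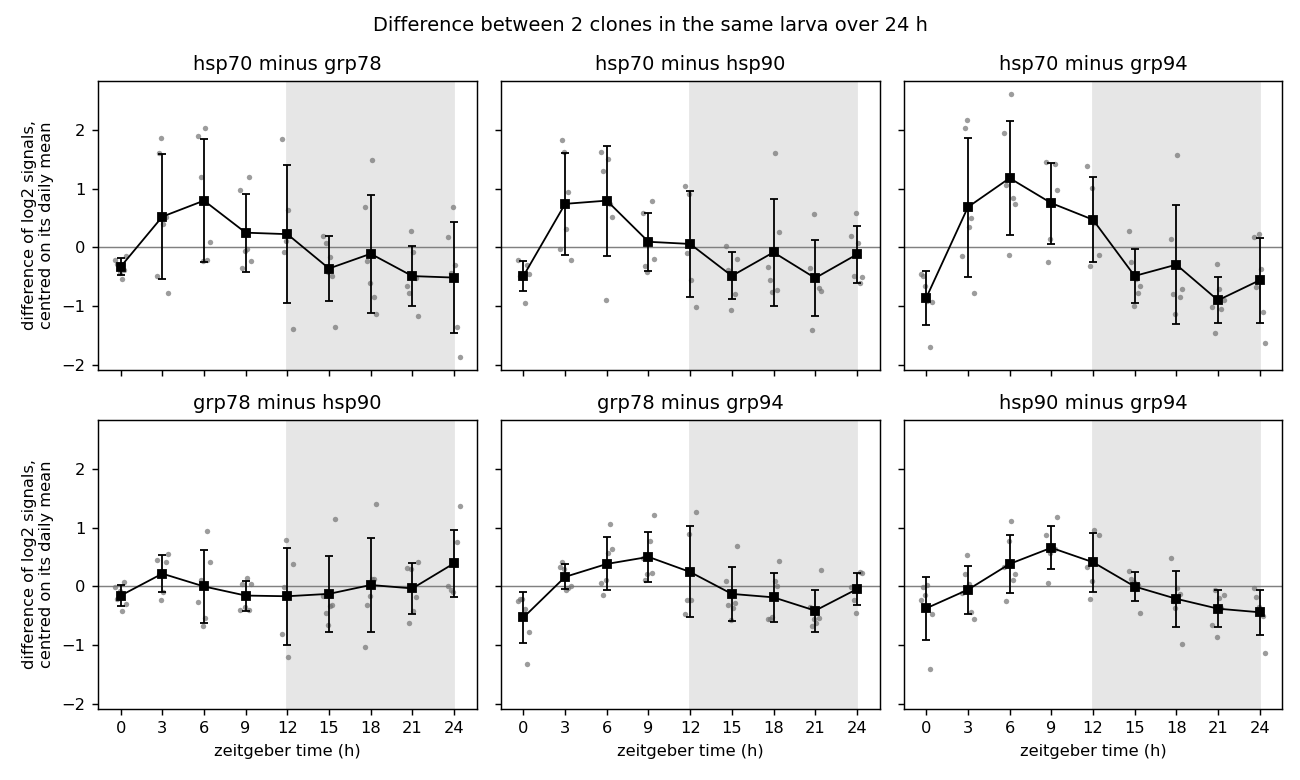
Difference of the log2 signals of 2 clones in the same larva, centred on its daily mean (y axis), against zeitgeber time (x axis, h), for the 6 pairs, with grey points for larvae, squares and bars for mean and SD (n = 6, and 5 at 12 h) and the dark phase in grey. The 3 differences from grp94 had positive means from 6 h to 12 h and negative means from 18 h to 24 h. The means of grp78 minus hsp90 stayed between -0.17 and 0.39, with single larvae beyond these values.

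Peak times of the fitted cosines were compared as well, with intervals that take into account that both clones were measured in the same larva and are not adjusted over the 6 pairs. Grp94 peaked 5.10 h after hsp70 (95% interval 3.43 to 6.76 h), 3.28 h after grp78 (1.82 to 4.75 h) and 2.93 h after hsp90-alpha (1.68 to 4.19 h). Hsp90-alpha peaked 2.16 h after hsp70 (0.96 to 3.36 h) and grp78 peaked 1.81 h after hsp70 (0.36 to 3.26 h). The permutation test of courses did not separate hsp70 and grp78 (adjusted p = 0.111). The peaks of grp78 and hsp90-alpha lay 0.35 h apart, with an interval of -0.95 to 1.65 h that leaves room for either order. This comparison of peaks was added after the courses had been seen.

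Larvae of the same sampling time also differed from each other, and the 2 cytosolic clones did so together. The deviations of hsp70 and hsp90-alpha from the means of their sampling times had a Pearson's r of 0.54 over 53 larvae (permutation within sampling times, two-sided p = 8.5e-04, adjusted over 6 pairs p = 0.0051) and a Spearman's rho of 0.50 (permutation p = 9.4e-04, adjusted p = 0.0056). Without the 2 larvae farthest from the median of hsp70, r was 0.52. It was 0.49 among the 32 larvae of the first scan batch, 0.53 among the 15 of the second and 0.38 among the 6 of the third, and 0.50 with slide means removed. The 2 larvae at 3 h with hsp70 at 2.35 and 2.38, chosen here after their values were seen, were also the 2 highest of that time in hsp90-alpha, at -0.77 and -0.54. Values of 1 larva share its array and its normalization, and how much of r comes from that was not tested.

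The other 5 pairs did not pass after adjustment of Pearson's r. For hsp90-alpha and grp94, r was 0.39 (permutation p = 0.0168, adjusted p = 0.0504) and rho 0.37 (adjusted p = 0.0409), with 0.48, 0.32 and -0.22 in the 3 scan batches and 0.33 without the 2 farthest larvae. This pair passed with slide (r = 0.36, adjusted p = 0.0224), scan batch (0.35, adjusted p = 0.0491) or replicate number (0.38, adjusted p = 0.0249) as a block. In covariation tests with a block, here and below, the block was removed from the values, but larvae were permuted across blocks within sampling times. Their p-values are therefore approximate, and those near the threshold decide little. For hsp70 and grp94, r was 0.32 (permutation p = 0.0252, adjusted p = 0.0504) and rho 0.23 (adjusted p = 0.161), with 0.34, 0.07 and 0.46 in the batches and 0.35 without the 2 farthest larvae. It passed with scan batch (0.27, adjusted p = 0.0494) or replicate number (0.31, adjusted p = 0.0249) as a block, and not with slide (0.23, adjusted p = 0.0953).

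The pairs with grp78 also changed when slides were held constant. For the 2 clones of the endoplasmic reticulum, grp78 and grp94, r was 0.16 (permutation p = 0.155, adjusted p = 0.232, rho 0.25 with adjusted p = 0.132), but 0.32, 0.35 and 0.77 within the 3 scan batches, and 0.35 with slide means removed (adjusted p = 0.0058). For hsp70 and grp78, r was 0.16 (permutation p = 0.327, adjusted p = 0.393, rho 0.14 with adjusted p = 0.451), with 0.51, 0.05 and 0.70 in the batches and 0.40 with slide means removed (adjusted p = 0.0317). For grp78 and hsp90-alpha, r was 0.04 (permutation p = 0.808, adjusted p = 0.808, rho 0.10 with adjusted p = 0.514), with 0.29, 0.32 and -0.31 in the batches and 0.26 with slide means removed. Without the 2 farthest larvae these 3 values of r were 0.16, 0.10 and 0.15. The 6 larvae of slide 7, high in grp78 by 0.52, were on average 0.51 low in hsp70, 0.29 low in hsp90-alpha and 0.17 low in grp94.

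**Figure D3:**
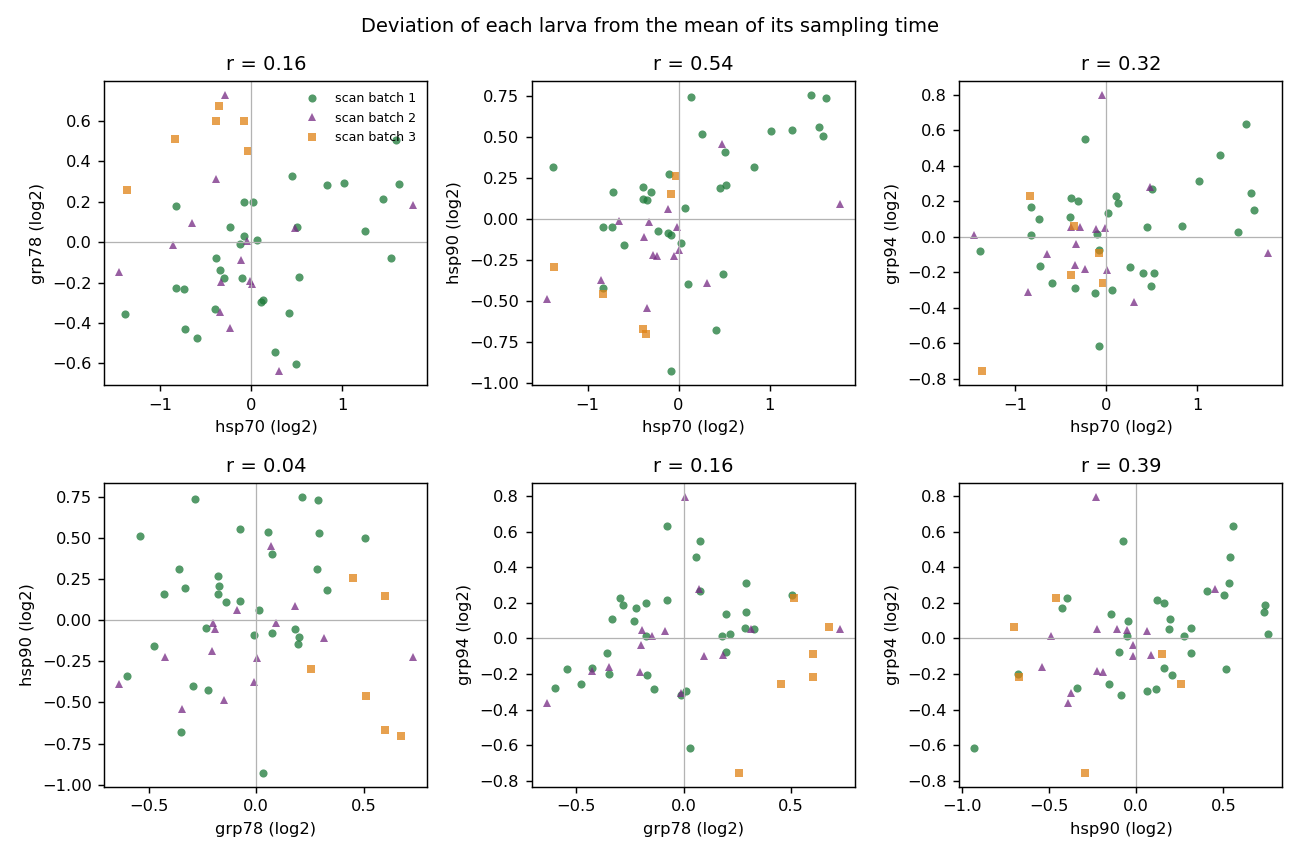
Deviation of each of 53 larvae from the mean of its sampling time (both axes, log2) for the 6 pairs of clones, with symbols for the 3 scan batches and Pearson's r above each panel. Hsp70 and hsp90 deviated together (r = 0.54), and the 6 squares of the third batch lie on the high side of grp78.

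Over the 53 arrays, the probes most like each member were found by Pearson's r among 13,401 probes with a value on all arrays, as a description, since all probes share arrays, sampling times and scaling. For hsp70 these were C2_283 (r = 0.77), DnaJ C3 (r = 0.75), which is a co-chaperone of grp78 in the endoplasmic reticulum, and C2_8898 (r = 0.73), annotated in the study as apoptosis facilitator Bcl-2-like protein 14. Hsp90-alpha was number 6 for hsp70 (r = 0.68), grp78 number 95 (r = 0.56) and grp94 number 1222 (r = 0.31). In the other direction, hsp70 was number 56 for hsp90-alpha. For grp78 the most alike probe was clock (r = 0.76), followed by C2_4559 (r = 0.76) and C2_8823 (r = 0.75), and bmal1 was number 16 (r = 0.72). For hsp90-alpha they were C2_19205 (r = 0.80), C2_1777 (r = 0.79) and C2_14793 (r = 0.79), and for grp94 C2_10370 (r = 0.81), C2_2612 (r = 0.72) and C2_2492 (r = 0.71), with calreticulin as number 7 (r = 0.70). The clones given by code only have no gene name in the tables used here. The core clock genes clock and bmal1 peaked at 10.8 h (95% interval 9.86 to 11.8 h) and 10.0 h (9.12 to 10.9 h), with amplitudes of 1.05 and 1.27, and were well above background on 40 and 34 of the 53 arrays.

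Other genes of protein folding and breakdown mostly had fitted peaks in the first hours of the dark phase. Many of them had their highest measured mean later, at 18 h. The lists hold 29 clones from the study's cluster of genes highest from late in the light phase to early in the dark phase. That cluster was formed on these same samples from genes that passed the study's own test. Passing the F test, a higher mean at 12 h than at 0 h and a peak around light off were therefore largely built in. Counts of the 29 clones and of the single lists below are a description, and comparisons with all probes do not test them. All 29 had a higher mean at 12 h than at 0 h, as did 59.2% of all probes, and 4 passed the contrast, where 2.46% of all probes were called higher. Of the 29 cosines, 27 peaked from 12 h to 16 h, as did 18.4% of those of all probes.

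Among 5 helpers of folding in the endoplasmic reticulum, 5 passed the F test and 1 was called higher at 12 h than at 0 h, with a median difference of 0.44, against 0.07 over all probes. DnaJ C3 rose by 0.63 ± 0.19 (SE, adjusted p = 0.0287) and its cosine peaked at 10.4 h (95% interval 8.85 to 11.9 h). Protein disulfide-isomerase, which forms disulfide bonds, peaked at 9.18 h (7.47 to 10.9 h). Calreticulin, a calcium-binding chaperone of glycoproteins, peaked at 13.3 h (12.2 to 14.5 h), DnaJ B11, a co-chaperone of grp78, at 13.1 h (11.6 to 14.7 h) and DnaJ C10, a reductase that works with grp78, at 13.5 h (11.9 to 15.1 h). The ranges of their means, from 0.64 to 0.75, were below those of all 4 chaperone clones. This is a comparison of differences and not of levels.

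Among 3 other co-chaperones, 3 passed the F test, with peaks at 14.03 h for heat shock protein beta-8, a small heat shock protein, 15.1 h for DnaJ C17 and 15.8 h for DnaJ A1, a partner of cytosolic hsp70. From light on to light off, heat shock protein beta-8 rose by 0.45 ± 0.14 (SE, adjusted p = 0.0469), while DnaJ A1 differed by 0.16 ± 0.16 (adjusted p = 0.750). The peak of DnaJ A1 had a 95% interval of 13.9 to 17.6 h, which lies after that of hsp70. All 3 had their highest measured mean at 18 h. Under median centring 1 of these 3 clones passed the F test.

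Of 7 clones of the ubiquitin system, which tags proteins for breakdown, 6 passed the F test and 2 were called higher at 12 h than at 0 h. The exception in the F test was the E3 ligase UBR1 (adjusted p = 0.105). The study also listed the deubiquitinases USP28 and USP3 and the ubiquitin-like protein NEDD8, which are not among the 29 clones. Their F tests gave adjusted p-values of 4.0e-06, 0.0483 and 0.0142, and USP28 rose by 1.39 ± 0.26 (SE, adjusted p = 2.0e-04) from 0 h to 12 h. The range of means was 1.62 for the ubiquitin-conjugating enzyme E2 C, 1.49 for polyubiquitin-C and 1.42 for USP28, against 0.80 for grp94. Polyubiquitin-C, a stress-inducible source of ubiquitin, rose by 0.61 ± 0.13 (SE, adjusted p = 6.9e-04) and peaked at 14.6 h (95% interval 13.96 to 15.2 h), and the ubiquitin-conjugating enzyme E2 C, which acts in mitosis, rose by 0.99 ± 0.22 (adjusted p = 0.0021) and peaked at 12.7 h (11.9 to 13.6 h). Of 14 proteasome subunits, 12 passed the F test and 0 were called at 12 h against 0 h (limma, and 2 at an unadjusted p under 0.05). Their ranges of means ran from 0.33 to 0.78 and their fitted peaks from 12.4 h to 15.5 h. Most of the subunits had their highest measured mean at 18 h. Some 95% intervals of the peaks began before light off, such as 10.6 to 15.7 h for 26S protease regulatory subunit 8. Under median centring 2 of the 14 subunits passed the F test, and 1 under normexp background correction.

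**Figure D4:**
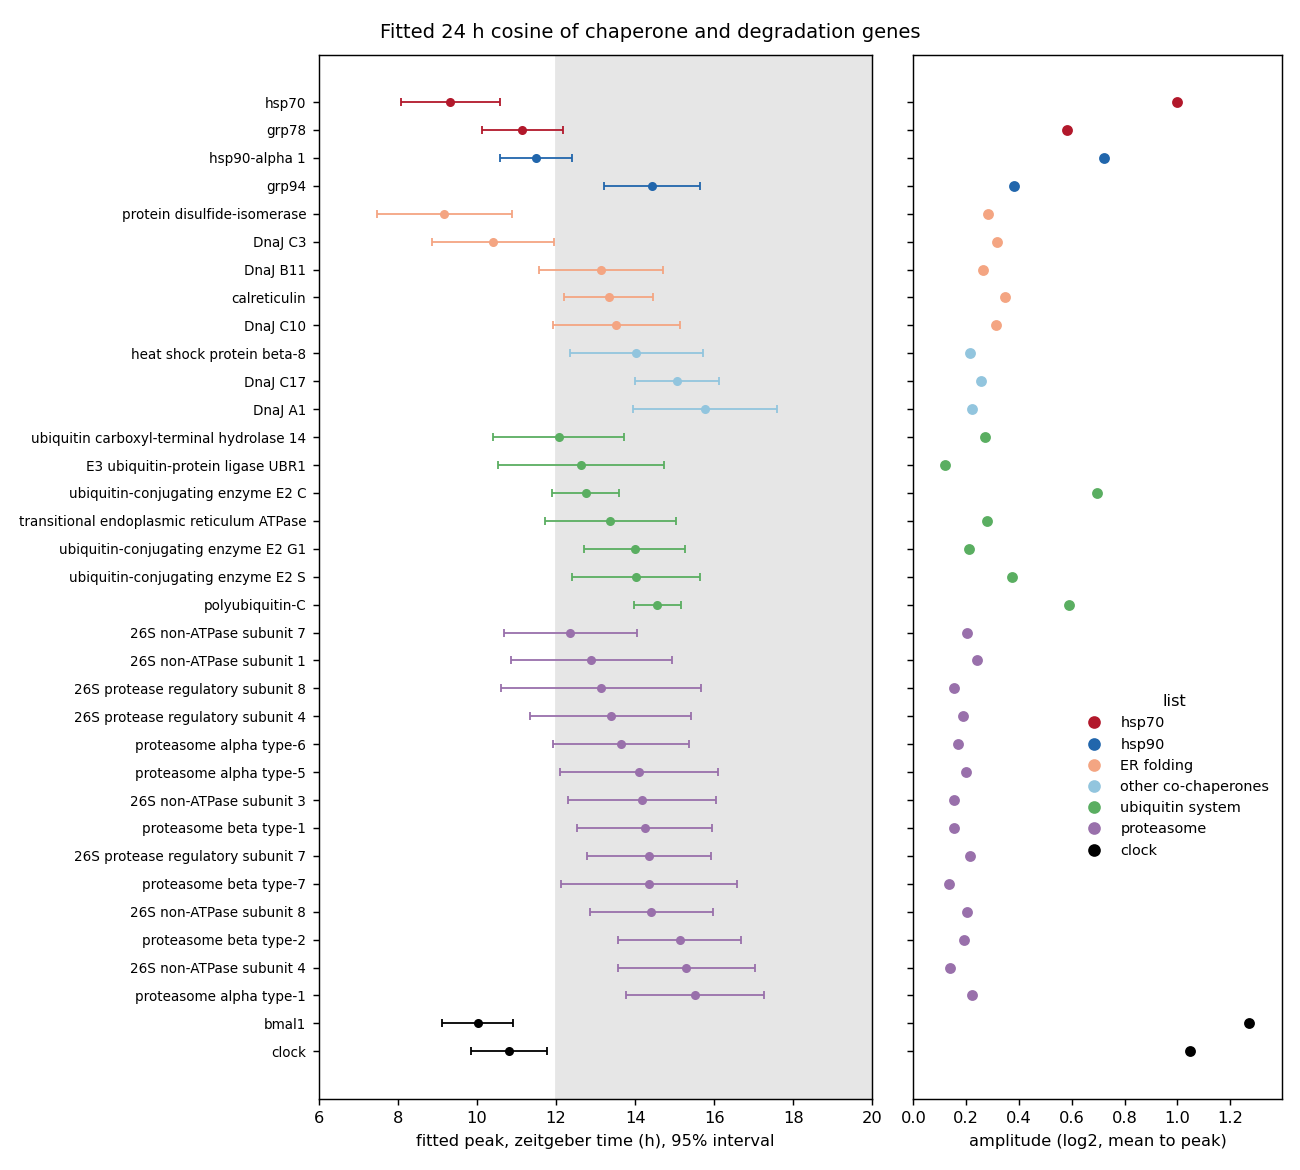
Fitted peak time with its 95% interval (left, zeitgeber time in h, dark phase in grey) and amplitude (right, log2 from mean to peak) of the 24 h cosine for the 4 clones, the listed folding and breakdown genes and 2 clock genes, 1 row per gene. Fitted peaks of hsp70, protein disulfide-isomerase, DnaJ C3, bmal1 and clock lay before 11 h. Those of grp94 and the proteasome subunits lay after light off at 12 h, although some proteasome intervals began before it.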

How the data were processed

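RNA of single whole larvae was measured on 1-colour Agilent arrays. The deposited scanner files hold intensity values that the authors' software (Agilent Feature Extraction 11.5.1.1) had background-corrected. The deposited table holds log2 values, which the authors had shifted by the 75th percentile and centred per probe, and served as an alternative. Groups are the sampling times in the labels. Control spots (536 per array) and outlier spots (974 over all arrays) were left out and spots of a probe averaged, in R 4.3.3 with the package data.table (version 1.17.8). Tests were run in limma 3.58.1 with Benjamini-Hochberg adjustment over 13,940 probes, as a model of 9 groups with the moderated F test and contrasts, and as cosine fits of 24 h and 12 h. Intervals of peak times come from the delta method. Courses and covariation of 2 clones were tested by permutation in Python 3.11.15 with numpy 2.4.6, and figures drawn with matplotlib 3.10.9. The number of arrays limits the precision. P-values measure the spread between larvae. Larvae of a sampling time came from shared tanks, whose number the labels and the methods give differently, and no larva's tank is labelled, so that tank is in no test. Members, lists and tests were chosen with earlier results of these data known. Named genes are the members, the listed genes, the 3 probes most like each member, and bmal1 and clock, while 2 larvae were singled out after their values were seen. The alternatives were other background corrections and normalizations, a filter on dim probes, outlier spots kept, the deposited table, slide, scan batch or replicate number as a block, larvae left out, and the methods' analysis of variance. The procedures were tested on simulated data. Sequences and genome positions of the probes were not used here.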

Additional observations from a re-analysis of the deposited data

Results flagged for a closer look

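Within the 36 combinations of clone and sampling time, 2 larvae stood apart from the others of their group by Dixon's test, and chance marks about 1 in 20 groups. The highest grp78 value at 24 h was -1.20 (replicate 6), with the next at -1.66, and its gap was 0.634 of the range of the 6 larvae. This larva lay on slide 7, whose 6 larvae were on average 0.52 above the grp78 means of their sampling times. The highest grp94 value at 0 h was 3.25 (replicate 5), with the next at 2.50 and a gap of 0.668 of the range.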

How the results depend on the processing

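The F test, the 24 h cosine and the missing 12 h component kept their side of the threshold for all 4 clones under all alternatives, except the F test of grp94 under normexp background correction (adjusted p = 0.432), and the range of means moved with it for grp78 (0.96) and hsp90-alpha (1.16). Normexp also shifted the median signal of all probes between sampling times by up to 0.49. It also ended the course differences of grp78 and grp94 (adjusted p = 0.248) and of hsp90-alpha and grp94 (0.0735), turned the covariation of grp78 and grp94 (r = -0.42, adjusted p = 0.0339), and gave 931 probes past the F test, 1560 with a 24 h rhythm and 5 with a 12 h component, against 2194, 4133 and 14. The lists then counted 2 of 5 (endoplasmic reticulum), 1 of 3 (co-chaperones), 3 of 7 (ubiquitin) and 1 of 14 (proteasome). Median centring gave 1 co-chaperone, 2 proteasome subunits, and covariations that passed for hsp70 and grp94 (r = 0.44) and for hsp90-alpha and grp94 (r = 0.51). The cause was not tested.

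Median signal minus background brought the covariation of hsp70 and grp94 past the threshold (r = 0.34). With slide as a block, 4078 probes passed the F test, and the covariations of hsp70 and grp78 (r = 0.40), grp78 and grp94 (0.35) and hsp90-alpha and grp94 (0.36) passed. With scan batch as a block, r was 0.39, 0.37 and 0.35 for these pairs and 0.27 for hsp70 and grp94, and all 4 passed. Replicate numbers were not taken to pair the larvae, and a check of correlations between arrays could not decide whether they do. Of pairs of arrays with the same number, 132 of 208 correlated over 0.1 (median r 0.18), against 222 of 1040 with different numbers (median r -0.04). Of pairs on the same slide, 136 of 176 did (median r 0.22). Arrays with the same number often shared a slide, so that number and slide were not separated. With the replicate block, 3953 probes passed the F test, the courses of hsp70 and grp78 differed (adjusted p = 0.0334), and r was 0.38 for hsp70 and grp78, 0.31 for hsp70 and grp94, 0.27 for grp78 and grp94 and 0.38 for hsp90-alpha and grp94, all past the threshold. The F tests, rhythms and contrasts of the 4 clones that were run under it kept their calls. Each of the 3 blocks brought 7 of 7 ubiquitin clones, UBR1 included, and 14 of 14 proteasome subunits past the F test.

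With larvae left out, the 12 h minus 0 h difference was 1.41 to 2.13 for hsp70 and 0.27 to 0.66 for grp94. The adjusted p of the course difference ran from 0.0472 to 0.380 for hsp70 and grp78, and from 0.0023 to 0.185 for hsp70 and hsp90-alpha. The range of r was 0.23 to 0.36 for hsp70 and grp94, 0.083 to 0.35 for grp78 and grp94 and 0.22 to 0.47 for hsp90-alpha and grp94. The F test counted 1440 to 2395 probes, 3 to 5 helpers of the endoplasmic reticulum, 1 to 3 co-chaperones and 4 to 13 proteasome subunits, and the 12 h component 9 to 16 probes. The covariation of hsp70 and hsp90-alpha passed under all alternatives run (r from 0.43 to 0.66), as did the course difference of hsp70 and grp94. The filter on dim probes left member values as they were, so the pair tests were not run under it.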
